A study of Drosophila melanogaster with 4 samples.

Results

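The genes followed here through *scrib* mutant wing disc tumours number 40 and either copy DNA or prepare its copying. All 40 were found among the 7845 genes listed at every age, of 9074 listed at any age. The members were chosen by what their products do. They cover the MCM helicase, the factors that switch it on, origin licensing and the polymerases. The rest are the clamp with its loader and the single-strand binding protein RPA, nucleotide supply, and regulators of S phase and its checkpoint. The cells came from wing imaginal discs, the epithelial pouches of the larva from which the adult wing grows, of *Drosophila melanogaster* larvae of genotype *scrib*-/-*FRT82B*, from parents of the strain *scrib*[1]*FRT82B*/TM6B raised at 25 degrees. *scrib* encodes a protein that keeps epithelial cells polarised. The authors reported that discs lacking it were smaller than control discs and arrested in growth at the youngest ages sampled here. They grew faster later and became large tumours over an extended larval period. The discs were taken 4, 5, 8 and 14 days after egg laying and dissociated with trypsin, and 1 single-cell library was prepared per age on the 10x platform. Control discs were not analysed here, so every comparison is between ages of the mutant or between cells of 1 library, and age cannot be told apart from library.

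DNA replication is prepared in G1, when the origin recognition complex, Cdc6 and Dup load the ring-shaped MCM helicase onto origins. In S phase Cdc45 and the GINS complex join and activate the helicase, the polymerases copy both strands, and the sliding clamp PCNA holds them on the template. The transcription factor E2f1 with its partner Dp turns on many of these genes as a cell enters S phase, together with CycE, the cyclin that partners Cdk2, so that their RNA marks cells near or in S phase.

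The libraries for days 4, 5, 8 and 14 held 3785, 6457, 3104 and 1110 cells, with median totals between 18299 and 23326 unique molecular identifiers (UMIs, each standing for a captured RNA molecule) per cell. Ribosomal protein genes gave 48.5%, 47.5% and 47.3% of UMIs at the first 3 ages and 40.7% on day 14. Of 8 markers of disc epithelium, *Fas3* and *sd* had a UMI in 95.3% to 99.2% of cells, and *grh*, *shg*, *crb* and *vg* in 49.5% to 91.9%. The regional markers *nub* and *Dll* were seen in fewer, 5.79% to 27.9% and 1.90% to 13.3%. Cells with UMIs of at least 4 of 7 myoblast markers made up 3.46%, 4.74%, 5.80% and 3.78% of cells on days 4, 5, 8 and 14. Of the tracheal markers, *btl* had a UMI in 0.132% to 2.07% of cells and *trh* in 0.713% to 7.39%. *Gasp* and *verm* were seen in 55.1% to 95.5% of cells and so did not mark a small class. Between 5 and 34 cell barcodes were shared by any pair of libraries.

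The level of a gene is the mean over the cells of a library of its UMIs per 10000 UMIs of the cell. Levels are compared here between ages and cells and not between genes, since nothing that differs between genes was corrected for. Intervals are 95% and cover counting error only, and a half-width beside a log2 ratio is the same on that scale. Half-widths are computed from total UMIs, while levels are means over cells, so they leave out the spread between cells. With 1 library per age there is no test of any change with age, and UMIs of sparse genes can also come from free RNA.

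The summed level of the 40 genes for days 4, 5, 8 and 14 was 19.7, 20.04, 21.1 and 22.1. The genes thus took a slightly larger part of the RNA at the later ages, at a log2 ratio of day 14 over day 4 of 0.17 (half-width 0.014). Within this sum *E2f1* alone went from 0.697 on day 4 to 1.86 on day 14. A large part of the difference was therefore that of *E2f1* and not of the set as a whole. Of 5187 genes with a mean level of at least 0.1 over the libraries, 33.5% were at least 1.5-fold higher on day 14 than on day 4 and 6.79% at least 1.5-fold lower. Of the 36 members past that filter, 4 were higher by that fold (*E2f1*, *CycE*, *Psf1* and *dup*) and 0 lower. *Orc1*, below the filter, made a count of 5 among all 40. *dup* lay just inside that limit, at log2 0.59, and *Mcm2* just outside it, at 0.55. The median log2 ratio of the 36 members was 0.16, with 25 higher and 11 lower. For the 5187 genes it was 0.30, with 3599 higher and 1588 lower, a like split. Scaled to UMIs outside ribosomal protein genes, the median of the 5187 genes was 0.07, with 2814 higher and 2373 lower. On that scale 15 of the 40 members were higher on day 14 and 25 lower, against 28 and 12 on the scale of all UMIs. Small changes of 1 sign therefore depend on the scale, and this bears on each modest difference below.

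Between neighbouring ages few members differed by that much. From day 4 to day 5, 0 of 36 passed 1.5-fold either way, where 1.62% of genes were higher and 0.27% lower. From day 5 to day 8 it was again 0 of 36 either way, beside 7.25% higher and 1.62% lower. From day 8 to day 14 only *E2f1* was higher by that fold among the 36, and 0 were lower, beside 17.2% and 1.1% of genes. *Orc1* also passed it among the 4 members below the filter. The members higher at each later age numbered 8, namely *Mcm3*, *dpa*, *Mcm7*, *CDC45L*, *dup*, *RPA2*, *RnrS* and *E2f1*, and those lower at each numbered 4, *Psf2*, *Psf3*, *Orc5* and *RfC38*. Of the 5187 genes, 29.8% were higher at each later age and 9.31% lower.

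**Figure D1:**
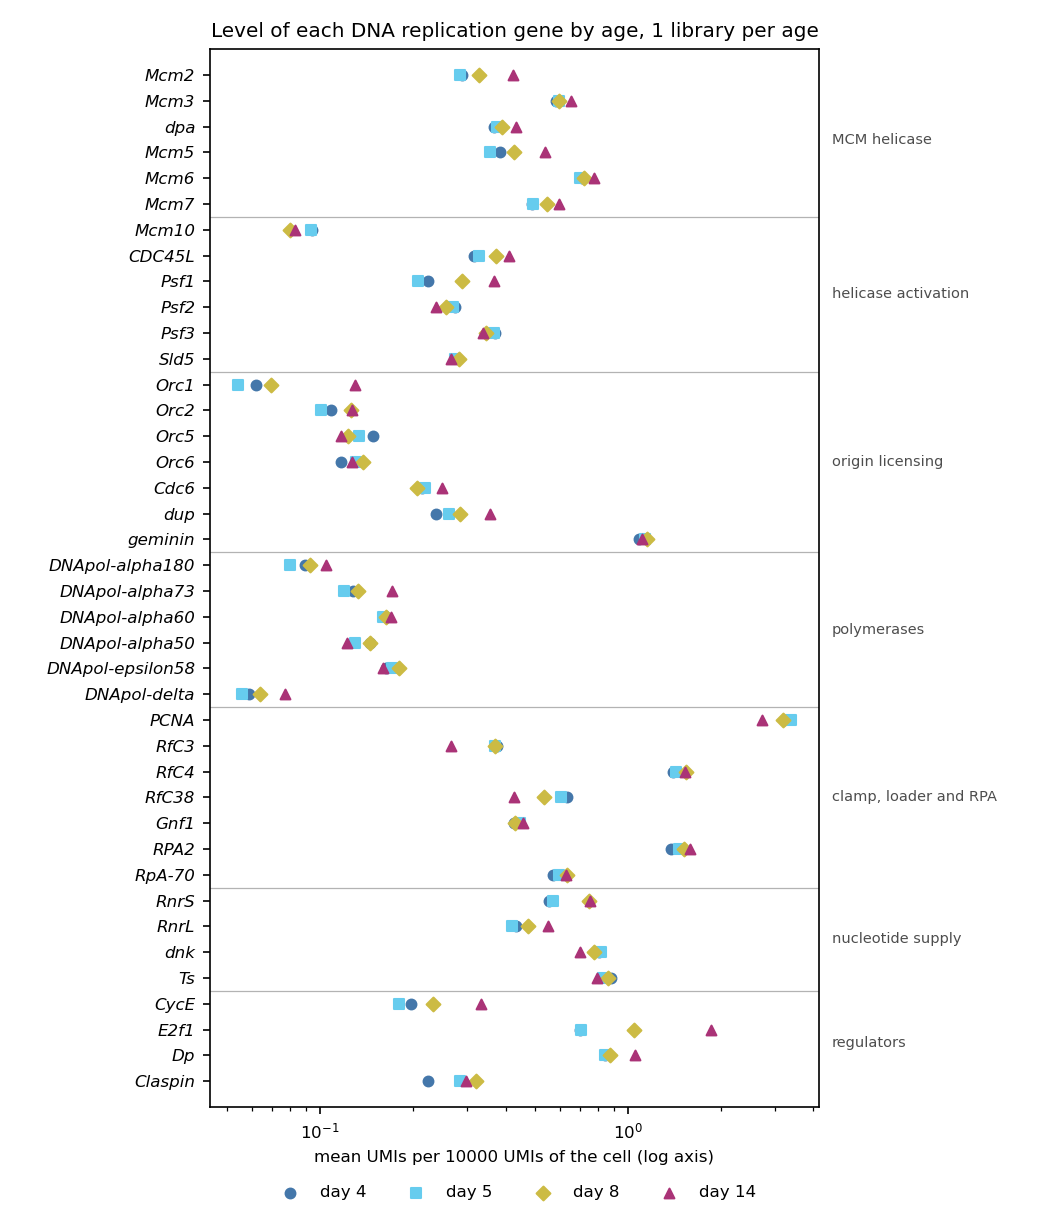
Level of each of the 40 genes (mean UMIs per 10000 UMIs of the cell, log axis) on days 4, 5, 8 and 14, in rows grouped by role, with 1 point per library. For most genes the 4 points lie close together; *E2f1* stands out, at 0.697 on day 4 and 1.86 on day 14.

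The regulators held the largest difference with age. *E2f1*, which drives S phase genes, had levels of 0.697, 0.706, 1.04 and 1.86 at the 4 ages, and a UMI in 73.5%, 70.2%, 79.7% and 92.3% of cells. It was flat over the first ages and highest on day 14, 2.67-fold above day 4 (log2 1.42, half-width 0.056), and it remained 1.16 higher on the log2 scale with ribosomal UMIs left out. *CycE*, which brings cells into S phase, had levels of 0.197, 0.181, 0.233 and 0.334 on days 4, 5, 8 and 14. Its day 14 level was 1.69-fold that of day 4 (log2 0.76, half-width 0.12), and 0.49 on the log2 scale without ribosomal UMIs. *Dp*, the partner of E2f1, went from 0.844 on day 4 to 1.05 on day 14, with 0.841 and 0.875 between, a smaller difference than that of *E2f1* (log2 0.32). *Claspin*, which passes signals from stalled forks to the checkpoint kinase, was lowest on day 4 at 0.224, then 0.285, 0.320 and 0.297. The summed level of the 4 regulators went from 1.96 to 3.55, and all 4 were higher on day 14 on both scales.

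The annotation used here (BDGP6) places *E2f1* on 3R at 21620304 to 21660871, minus strand, and *CycE* on 2L at 15727581 to 15748150, minus strand. Both overlap non-coding genes on the other strand, and *E2f1* also holds *mir-11* and *mir-998*. In all, 19 of the 40 genes overlap a gene on the other strand and 2 a gene on the same strand. No source used here says whether reads were counted by strand, so reads of such overlaps cannot be assigned with certainty.

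The 6 subunits of the MCM helicase, the motor that opens the double helix, were each higher on day 14 than on day 4 by log2 0.13 (*Mcm6*) to 0.55 (*Mcm2*), but without ribosomal UMIs *Mcm3*, *dpa* and *Mcm6* were slightly lower and only 3 stayed higher. *Mcm2* had levels of 0.289, 0.285, 0.327 and 0.424 on days 4, 5, 8 and 14, and *Mcm5* of 0.383, 0.357, 0.425 and 0.536. Both were lowest on day 5 and highest on day 14. *Mcm3*, *dpa* (the Mcm4 subunit), *Mcm6* and *Mcm7* differed by 1.09-fold to 1.23-fold between day 4 and day 14. The summed level of the 6 was 2.82, 2.80, 3.00 and 3.42.

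The factors that activate the helicase divided. *Psf1*, a subunit of the GINS complex, had levels of 0.225, 0.208, 0.288 and 0.366 on days 4, 5, 8 and 14 (log2 0.71, half-width 0.12, day 14 over day 4). The other GINS subunits did not follow it: *Psf2* went from 0.274 to 0.238 and *Psf3* from 0.369 to 0.338, each a little lower at every later age, and *Sld5* from 0.279 to 0.267. The products of these 4 genes form 1 complex, and their RNAs did not keep a fixed ratio between these libraries. *CDC45L* (Cdc45), which binds the helicase with GINS, was higher at each age, at 0.315, 0.329, 0.373 and 0.411. *Mcm10*, which helps fire origins, was low throughout, between 0.0796 and 0.0940, and the day 14 to day 4 ratio lay within counting error (log2 -0.18, half-width 0.23).

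Among the licensing genes, *Orc1*, the subunit of the origin recognition complex that comes and goes with the cell cycle, had levels of 0.0617, 0.0540, 0.0693 and 0.130 on days 4, 5, 8 and 14. It was low, with a UMI in 12.0%, 9.35%, 11.9% and 20.8% of cells, and its day 14 level was 2.11-fold that of day 4 (log2 1.08, half-width 0.21). *Orc5*, a core subunit, went the other way, from 0.148 through 0.134 and 0.123 to 0.116 (log2 -0.35, half-width 0.19). *Orc2* and *Orc6* had log2 ratios of 0.24 and 0.12 for day 14 over day 4, and the second of these lay within its half-width of 0.19. *dup*, the Cdt1 homologue that loads MCM, went from 0.238 to 0.262, 0.285 and 0.357 (log2 0.59, half-width 0.12). Its inhibitor *geminin* stayed between 1.08 and 1.15 at every age, with a UMI in 83.4% to 84.3% of cells, and the ratio of day 14 over day 4 lay within counting error (log2 0.04, half-width 0.063). *Cdc6*, which loads MCM with Dup, had levels from 0.206 to 0.250.

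The summed level of the 6 polymerase genes stayed between 0.717 and 0.805. *DNApol-alpha73*, the B subunit of the polymerase that starts each strand, was the most different of those past the filter, from 0.127 on day 4 to 0.171 on day 14 (log2 0.42, half-width 0.17). *DNApol-alpha50*, the catalytic primase subunit of the same enzyme, went from 0.145 to 0.122 (log2 -0.25, half-width 0.19), with 0.130 and 0.145 between. The catalytic subunits *DNApol-alpha180* and *DNApol-delta* lay below the filter, at 0.0798 to 0.105 and 0.0558 to 0.0769. *DNApol-alpha60* and *DNApol-epsilon58* differed between day 4 and day 14 by less than their counting half-widths.

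The clamp and its loader held the members with the largest differences downward. *RfC38*, a subunit of the clamp loader replication factor C, had levels of 0.633, 0.605, 0.532 and 0.427 on days 4, 5, 8 and 14 (log2 -0.57, half-width 0.099). *RfC3*, another subunit, was level at 0.374, 0.370 and 0.370 and then 0.267 (log2 -0.49, half-width 0.12). The other loader subunits did not go down with them: *RfC4* went from 1.40 to 1.53 and *Gnf1*, the large subunit, from 0.427 to 0.456. *PCNA*, the clamp itself, had levels of 3.20, 3.39, 3.20 and 2.73, lowest on day 14 (log2 -0.23, half-width 0.040). The RPA subunits *RPA2* (1.38 to 1.60) and *RpA-70* (0.569 to 0.627) were higher on day 14 on the scale of all UMIs, but all 7 genes of this group were lower on day 14 without ribosomal UMIs. Their summed level was 7.99, 8.30, 8.23 and 7.63.

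In nucleotide supply the enzymes of different routes also differed. *RnrS* and *RnrL*, the subunits of ribonucleotide reductase, which makes deoxyribonucleotides, were higher on day 14: *RnrS* at 0.553, 0.571, 0.748 and 0.753, and *RnrL* at 0.432, 0.421, 0.475 and 0.550. *dnk*, the salvage kinase for deoxyribonucleosides, was lower, at 0.804, 0.814, 0.774 and 0.698, and *Ts*, thymidylate synthase, at 0.880, 0.828, 0.861 and 0.794. These 4 directions were the same on both scales.

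**Figure D2:**
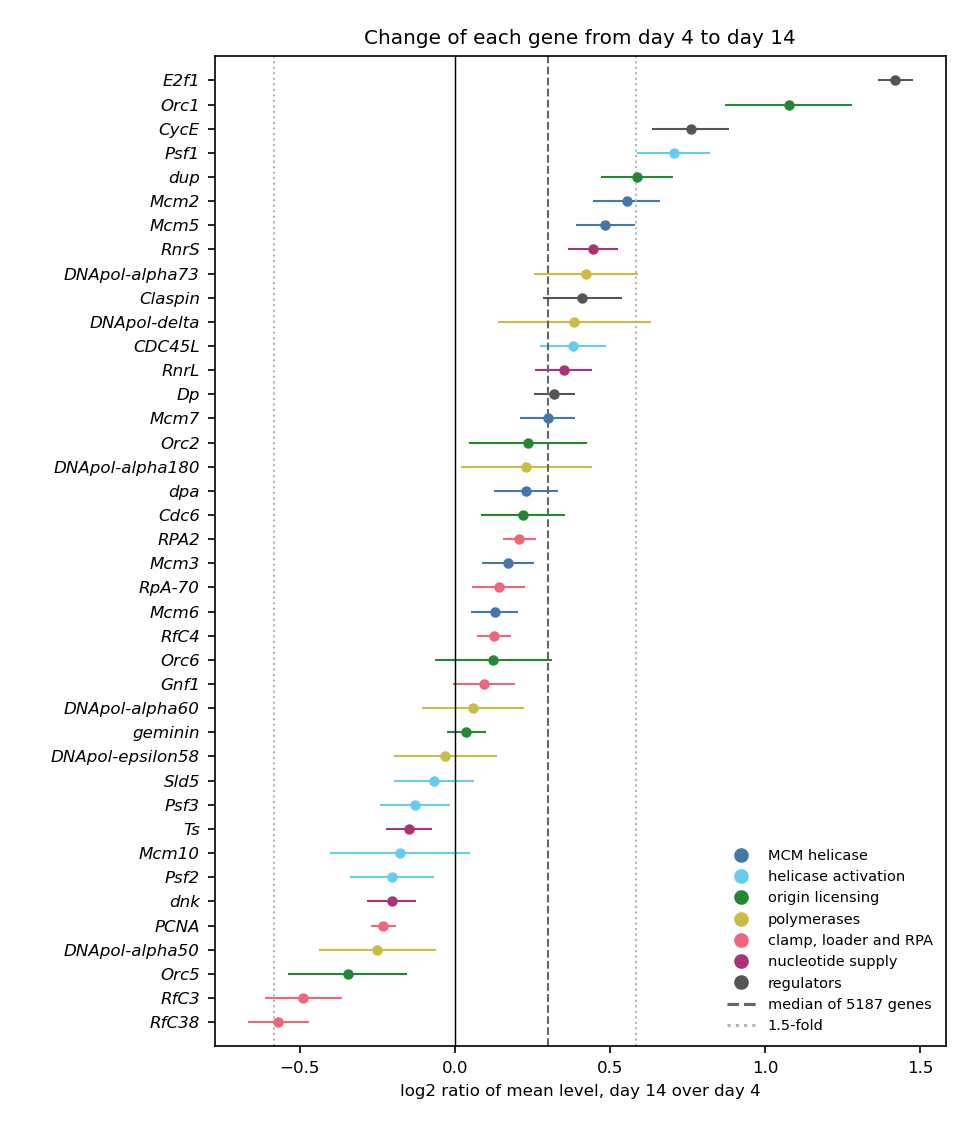
Log2 ratio of the mean level on day 14 over day 4 for each of the 40 genes, with 95% counting half-widths, coloured by role. The dashed line is the median of 5187 genes (0.30) and the dotted lines mark 1.5-fold; *E2f1*, *Orc1*, *CycE*, *Psf1* and *dup* reach the upper line and *RfC38* comes nearest the lower one.

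A further list held other replication genes. Of its 27 genes, 22 were higher and 5 lower on day 14 than on day 4, and 10 were past 1.5-fold, all of them higher. Of the 22 past the filter of 0.1, 8 were higher by that fold, 36.4% beside 33.5% of the 5187 genes, with a median log2 ratio of 0.31 beside 0.30, so that the list lay near the background. The 10 included *chif*, the activator of the Cdc7 kinase (0.128 to 0.325), *Caf1-105* and *Caf1-180*, which place histones on new DNA (0.0936 to 0.215 and 0.447 to 0.835), *dap*, an inhibitor of CycE and Cdk2 (0.494 to 0.900), and *E2f2*, the repressive E2F (0.263 to 0.467). The summed level of the 27 was 17.6, 17.9, 17.9 and 18.4. Of 24 genes of G2 and mitosis, 14 were higher and 10 lower, with 4 past 1.5-fold up and 2 down. Of the 22 of these past the filter, 3 were higher and 2 lower by that fold, 13.6% and 9.09% beside 33.5% and 6.79% of genes, with a median of 0.12 beside 0.30. *stg*, the Cdc25 phosphatase that starts mitosis, went from 3.38 to 8.05, while *Cdk1*, the kinase it acts on, went from 1.60 to 0.984. The summed level of this list was 19.1, 18.5, 20.4 and 24.3. Most of its difference between day 4 and day 14 was that of *stg*, so the sum does not describe the list as a class.

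To ask whether the genes mark a class of cells, each cell with at least 12000 UMIs was thinned to that number and the UMIs of the 40 genes were summed. The mean sum per cell was 23.6, 23.6, 25.3 and 26.6 UMIs on days 4, 5, 8 and 14, with standard deviations over cells of 15.2, 15.2, 16.5 and 16.8. Values ran in 1 broad peak with a long upper tail, and no gap set off a high class. Only 2, 5, 1 and 1 cells had 0 UMIs of the 40 genes.

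Cells with at least 39 UMIs, a value that 20% of cells reach when the libraries count equally, were called high. They made up 18.8%, 18.5%, 21.9% and 21.1% of cells on days 4, 5, 8 and 14, and the intervals of these shares were 17.5% to 20.2%, 17.5% to 19.5%, 20.4% to 23.4% and 18.7% to 23.6%. Without thinning, the share of cells above the same level was 17.9%, 18.5%, 21.3% and 19.9%. The day 8 interval lay above those of days 4 and 5, while that of day 14 overlapped all the others. This order depended on the setting. Thinned to 8000 UMIs, the intervals of day 5 (19.1% to 21.02%) and day 8 (20.2% to 23.1%) overlapped. With each member divided by its mean, that of day 14 (20.8% to 25.8%) lay above those of days 4 (16.8% to 19.4%) and 5 (16.1% to 18.1%). Between 15.8% and 17.1% of cells of each library lay within 1.2-fold of the limit, so the limit cuts through a range of values. The high cells are not named as a cell type, and whether overlapping states lie within this range was not tested. Thinning left out 355 cells on day 4, 953 on day 5, and 0 at the later ages.

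**Figure D3:**
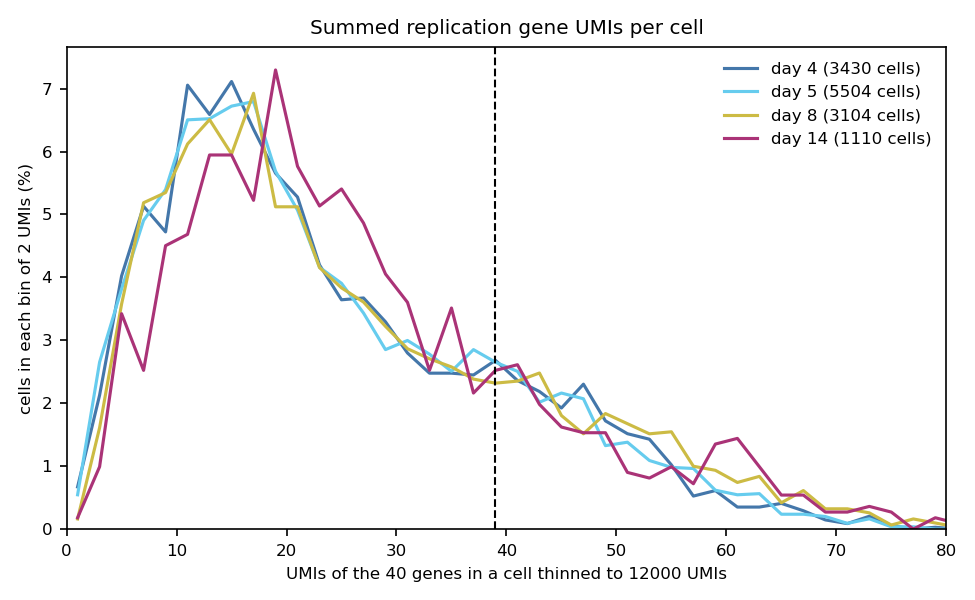
Share of cells (%) in bins of 2 UMIs by the summed UMIs of the 40 genes, after each cell was thinned to 12000 UMIs, with 1 line per age. The dashed line marks 39 UMIs; the 4 lines have 1 broad peak and a long tail, and the part past the line is 18.8%, 18.5%, 21.9% and 21.1% of cells on days 4, 5, 8 and 14.

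High cells had more RNA of other genes of the cell cycle, which were not used to call them. Of the 27 other replication genes, 23 were higher in high than in other cells in every library. Of the 24 genes of G2 and mitosis, 19 were, beside 30.1% of 5151 genes that were not members. In either list 0 genes were lower in every library, beside 23.9% of the 5151. Those 5151 all passed the filter of 0.1, while only 22 genes of each list did. The genes higher beyond the counting half-width in every library numbered 18 of 27 and 10 of 24, beside 9.98% of the 5151. *stg* was at 5.25 in high and 2.79 in other cells on day 4, and at 13.7 and 6.60 on day 14. Its log2 ratio was 0.91, 0.94, 1.09 and 1.05 over the 4 ages. *CycA*, a cyclin of S phase and G2, was higher by log2 0.34 to 0.50, and *CycB*, a mitotic cyclin, had log2 ratios of 0.15, 0.31, 0.08 and 0.37, of which that of day 8 lay within its half-width of 0.12. *Mmp1* had log2 ratios of -1.71, -1.91, -1.39 and -0.77. Before thinning, the median total of high cells was 22138, 18754, 16713 and 19497 UMIs, beside 25280, 21575, 18719 and 19146 in other cells, and the part of this in the result was not tested beyond the thinning.

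Cells with myoblast markers are part of these libraries, since myoblasts lie against the disc epithelium. Their summed level of the 40 genes was 18.1, 20.5, 21.5 and 22.9 on days 4, 5, 8 and 14, beside 19.8, 20.02, 21.03 and 22.1 in the remaining cells. They were thus below the other cells on day 4 and close to them later. The share of high cells without them was 19.1%, 18.6%, 21.96% and 21.2%, close to the shares with them.

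Mmp1 is a secreted protease that cuts the basement membrane, and cells rich in its RNA held less RNA of the replication genes in every library. Among thinned cells with 0 *Mmp1* UMIs the summed level of the 40 genes was 21.5, 21.7, 22.5 and 24.3 on days 4, 5, 8 and 14. In cells with at least 5 it was 8.44 (8.15 to 8.74), 7.82 (7.62 to 8.03), 10.1 (9.63 to 10.7) and 12.9 (12.1 to 13.8). The log2 ratios were -1.35, -1.47, -1.15 and -0.91, with half-widths of 0.051, 0.039, 0.073 and 0.094. The difference was smallest on day 14, where only 62 cells had at least 5 *Mmp1* UMIs, against 322, 590 and 125 at the earlier ages.

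The difference lay mostly above 1 *Mmp1* UMI. Cells with 1 had levels of 21.3, 21.4, 20.9 and 21.9, near or a little below those with 0, and cells with 2 to 4 had 17.1, 17.3, 16.0 and 19.1. High cells made up 2.48%, 2.20%, 2.40% and 9.68% of the class with at least 5 UMIs, beside 21.5%, 20.9%, 23.9% and 24.7% of the class with 0. The 9.68% is 3.63% to 19.9% by counting.

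**Figure D4:**
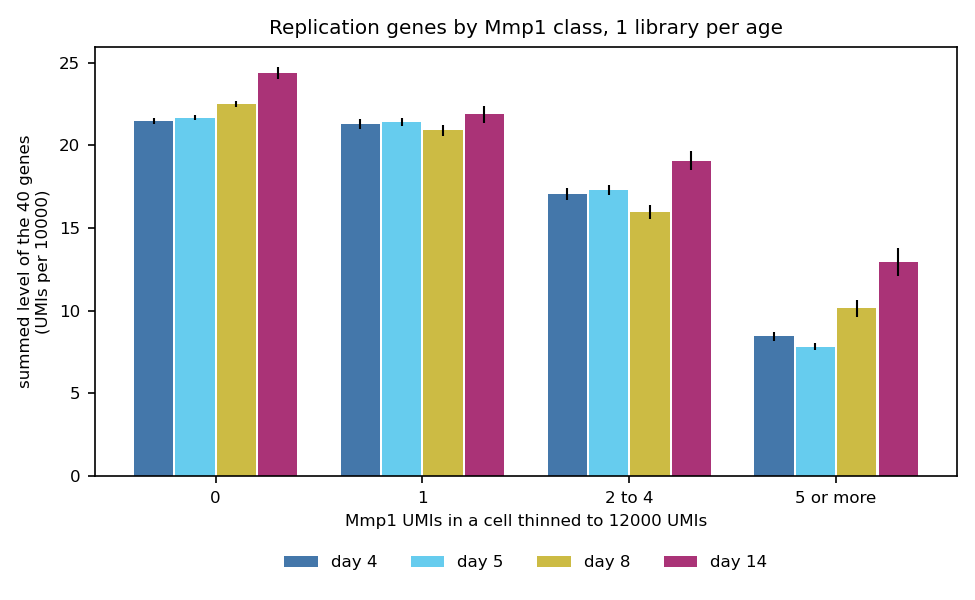
Summed level of the 40 genes (UMIs per 10000) in cells with 0, 1, 2 to 4 and 5 or more *Mmp1* UMIs after thinning to 12000 UMIs, for each age, with 95% counting intervals. At every age the bars of the last class are the lowest, at 8.44, 7.82, 10.1 and 12.9 on days 4, 5, 8 and 14.

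All 40 members were lower in the class with at least 5 *Mmp1* UMIs than in that with 0 on days 4, 5 and 8, and 37 of 40 were on day 14. Beyond their counting half-widths 39, 40, 37 and 28 of 40 were lower on days 4, 5, 8 and 14, beside 37.4%, 44.7%, 34.3% and 20.6% of the 5187 genes. Of the 5187, 57.5%, 58.4%, 59.8% and 61% were lower at the 4 ages, and 7.52%, 8.87%, 12.2% and 7.21% were lower by at least 2-fold. The median log2 ratio of the members was -1.45, -1.66, -1.36 and -1.004, beside -0.11, -0.14, -0.18 and -0.13 for all genes. The 3 exceptions on day 14 were *Mcm10* (0.10), *DNApol-delta* (0.10) and *Orc6* (0.16), all low genes.

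The roles differed in the size of this difference. The MCM genes had log2 ratios of -1.91, -2.05, -1.57 and -1.23 on days 4, 5, 8 and 14, and the regulators of -0.75, -0.85, -0.71 and -0.71. *Mcm5* had the largest of the MCM differences on days 4, 5 and 8, going from 0.431 to 0.0776 on day 4 (log2 -2.47, half-width 0.52). *PCNA* went from 3.50 to 1.31 on day 4 and from 3.01 to 1.73 on day 14. *CycE* had log2 ratios of -2.01, -1.86, -2.14 and -0.82, but *E2f1* of -0.41, -0.47, -0.60 and -0.52. The gene with the largest difference with age was thus among those that differed least with *Mmp1*. The other replication genes were lower in 26, 25, 26 and 24 of 27 cases, and the genes of G2 and mitosis in 23, 22, 22 and 23 of 24. Beyond their half-widths these counts were 22, 23, 17 and 11 of 27 and 20, 22, 20 and 19 of 24, to be read beside the same shares of all genes. The log2 ratios of *stg* were -2.48, -2.76, -3.20 and -1.61.

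Cells rich in *Mmp1* also differed in total RNA. Before thinning, their median was 30883 UMIs on day 4 against 23090 in cells with 0, and ribosomal protein genes gave 43.4% against 50.3% of their UMIs. On day 14 the medians lay closer, and the ribosomal shares were 38.5% and 41.5%. Across unthinned cells, Pearson's r between the mean log value of the 40 genes and that of *Mmp1* was -0.35, -0.38, -0.25 and -0.25 over 3785, 6457, 3104 and 1110 cells. The points share library and cell depth, and r of the 40-gene mean with the log of total UMIs was between -0.08 and 0.06, while that of *Mmp1* was 0.21, 0.26, 0.20 and 0.09. In the middle tercile of cells by total UMIs, r between the 40-gene mean and *Mmp1* was -0.26, -0.25, -0.23 and -0.23, weaker than over all cells. Scaled without ribosomal UMIs it was -0.38, -0.40, -0.26 and -0.25. All 40 members had a negative r with *Mmp1* in every library, as did 40.7% of 5087 genes seen in at least 10% of cells, and the values ran from -0.04 to -0.29 on average, most negative for *RfC4*, *RPA2*, *Mcm6* and *PCNA*. In counts this sparse, most of these single-gene values are weak.

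The share of cells with at least 5 *Mmp1* UMIs was 9.39%, 10.7%, 4.03% and 5.59% on days 4, 5, 8 and 14. That of cells with 0 was 59.0%, 59.9%, 67.9% and 53.0%. Given the class shares of day 4, the summed level of the 40 genes would have been 22.1 on day 14, beside 22.2 as measured in thinned cells, and 20.2 on day 8, beside 21.1. In thinned cells the level of day 4 was 19.7, and day 5 had 19.8 reweighted and 19.7 as measured. The reweighted and measured levels lay close together on day 14 and further apart on day 8. For day 8 the reweighted level lay nearer that of day 4 than the measured level did. On day 14 both shares were below those of day 4, and these shifts move the summed level in opposite directions. The close levels of day 14 thus do not mean that the classes were alike.

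Within each library the replication genes went up and down together from cell to cell, but not to the same degree. Of the 780 pairs of members, 780, 777, 775 and 772 had a positive r on days 4, 5, 8 and 14, with medians of 0.16, 0.14, 0.17 and 0.19. Pairs within the list of G2 and mitosis had medians of 0.11, 0.11, 0.12 and 0.16, not far below. Pairs of all genes were not analysed here. The closest pair was *PCNA* and *Ts*, with r of 0.65, 0.65, 0.68 and 0.61. The r of a member with the other 39 was highest for *PCNA* (0.81 on average), *Ts* (0.68), *dnk* (0.67), *RPA2* (0.66), *Mcm3* (0.61) and *RnrS* (0.58). It was lowest for *E2f1* (0.08), *Psf2* (0.12), *DNApol-delta* (0.17) and *Psf3* (0.18). r also depends on how often a gene is seen, and *E2f1* was seen in 70.2% to 92.3% of cells.

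The spread of a gene over cells beyond counting error, the squared coefficient of variation with the counting part taken off, was computed in the thinned cells. On average over the libraries it was largest for *dup* (1.42), *dnk* (1.27), *CycE* (1.14), *Claspin* (1.14) and *RnrS* (1.02). It was smallest for *Psf2* (0.013), *Psf3* (0.051), *Dp* (0.12), *geminin* (0.14), *E2f1* (0.19) and the 2 loader subunits *RfC38* and *RfC4* (0.20 each). *dup* and *dnk* thus varied most between cells on this measure, while *E2f1* was spread rather evenly over them.

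**Figure D5:**
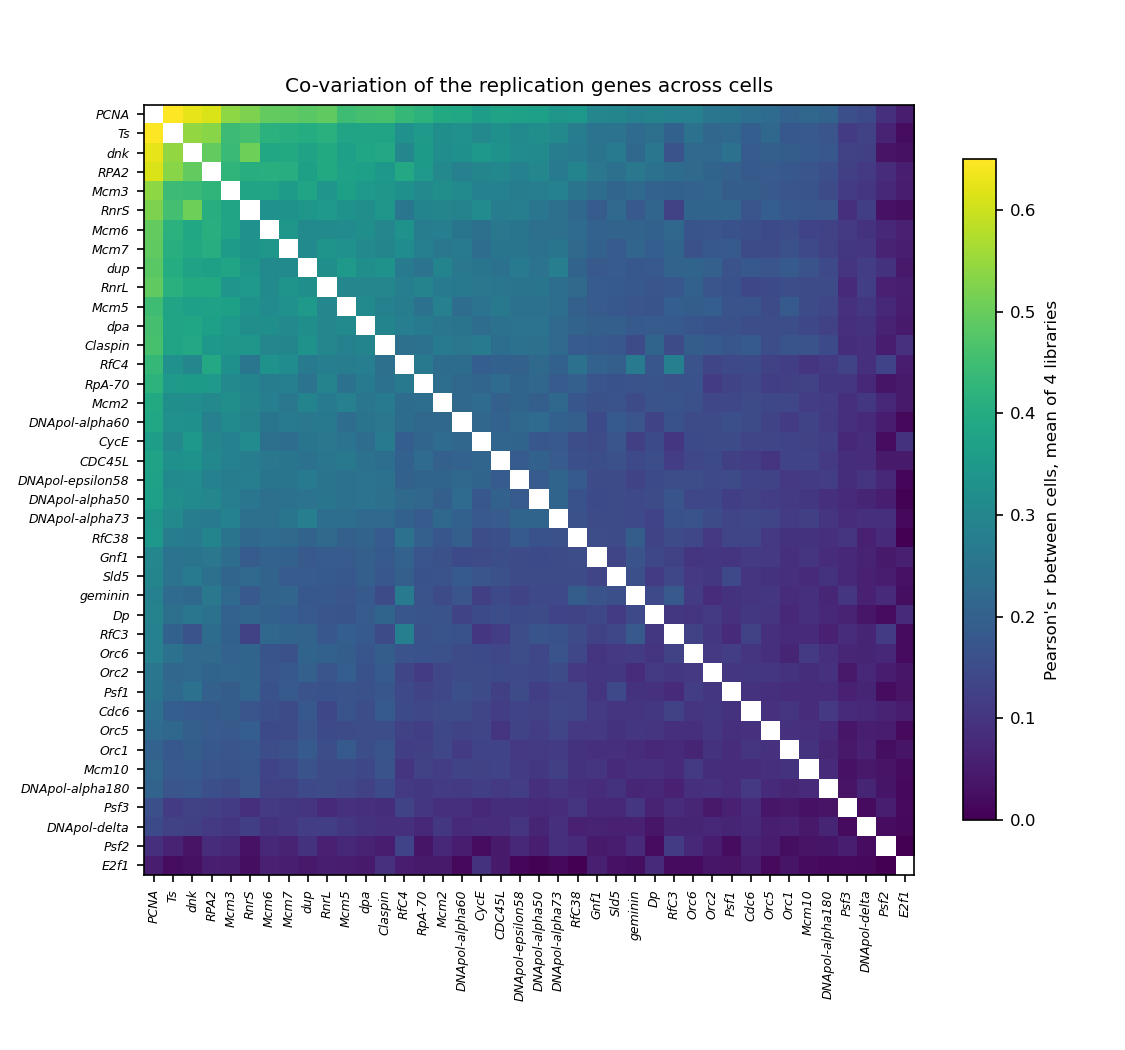
Pearson's r across cells between each pair of the 40 genes, as the mean of the 4 libraries, with genes ordered by their r with the other members. The corner of *PCNA*, *Ts*, *dnk* and *RPA2* is brightest (0.65 for *PCNA* and *Ts*), and the last rows, down to *E2f1*, are dark.

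Outside the list, the 10 genes most like the 40-gene mean, of 5051 compared and by mean r over the 4 libraries, were *dUTPase* (0.63), *WRNexo* (0.60), *HipHop* (0.60), *RPA3* (0.59), *CG9752* (0.58), *stg* (0.56), *Chrac-14* (0.56), *CG10336* (0.54), *Caf1-180* (0.51) and *asf1* (0.50). The median over the genes compared was 0.02. dUTPase keeps uracil out of DNA, RPA3 is the small RPA subunit, and Caf1-180 and Asf1 carry histones to new DNA. The 5 lowest were *CG13117* (-0.41), *CG10527* (-0.40), *CG4199* (-0.39), *CG8066* (-0.37) and *CG44325* (-0.36). *stg* is a gene of G2 and mitosis, and the mean of that list had an r of 0.50, 0.49, 0.44 and 0.54 with the 40-gene mean. Pairs of 1 member and 1 gene of that list had much lower medians, of 0.073, 0.068, 0.064 and 0.097. Among the genes of that list that were compared, *aurB* came next after *stg*, at 0.34, and *trbl* was lowest, at -0.06.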

How the data were processed

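The authors counted UMIs with Cell Ranger and normalised them with Seurat. The deposited values are the natural log of 1 plus UMIs per 10000 UMIs of the cell. Each cell's UMIs were recovered from the steps of these values, and 100% of values came out whole within 0.001. The sources used here do not give the genome build, the Cell Ranger version or whether doublets were removed. No doublet caller was run. All deposited cells were kept, with 1 library per age grouped by the label, so no test between ages was made. The most genes in a cell were 3998, 3996, 3995 and 3988 on days 4, 5, 8 and 14, and the fewest UMIs 7747, 8447, 12859 and 14609. Cells past such limits may have been removed before deposit, so shares of high cells describe the cells that remained.

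Levels were means over cells of UMIs per 10000. Ratios between ages used genes with a mean of at least 0.1 over the libraries. Cells were thinned without replacement to 12000 UMIs (seed 7). Poisson and Clopper-Pearson intervals are 95%. The software was Python 3.11.15, numpy 2.4.6, scipy 1.17.1, pandas 2.3.3 and matplotlib 3.10.9, and the scripts were tested on simulated data.

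The members and lists were chosen with earlier results of these data known. Named genes were all members, those with the 5 largest differences in each direction in full, the 10 genes with the highest and 5 with the lowest r with the members, the lists, *Mmp1* and the markers. Of 30 other replication genes 27 were matched, 3 symbols through aliases, and *Caf1*, *DNApol-epsilon* and *lat* were not analysed here. The 5 hemocyte markers and 1 of 5 tracheal markers were not analysed here. Gene positions come from the BDGP6 annotation, where 8 members have another current symbol. Promoter motifs and sequences were not analysed here.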

Additional observations from a re-analysis of the deposited data

Results flagged for a closer look

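Genes were picked out where the difference between high and other cells went past its counting half-width upward at 1 age or more and downward at another. This was seen for *Top2*, the topoisomerase that untangles DNA, whose log2 ratio of high over other cells was -0.074, -0.14, -0.068 and 0.28 on days 4, 5, 8 and 14, with half-widths of 0.13, 0.11, 0.13 and 0.20. Its values on days 4 and 8 thus lay within counting error. It was also seen for *trbl*, which slows entry into mitosis by removing Stg, at -0.51, -0.73, -0.95 and 0.37, with half-widths of 0.30, 0.28, 0.38 and 0.37, the last of them just passed. On day 14 *trbl* had 80 UMIs in high and 232 in other cells. The difference between the ages was not tested, since each age had 1 library.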

How the results depend on the processing

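The direction of the overall difference with age depended on the scale. On UMIs outside ribosomal protein genes the median log2 ratio of the members, day 14 over day 4, was -0.084 in place of 0.16 and that of their summed level -0.068 in place of 0.17, and relative to the median gene they were -0.15 and -0.13. As a difference of mean natural log values the median was 0.029. The summed level gave 0.21 from pooled UMIs and 0.25 without *RfC4*, *RPA2* and *PCNA*. The number of members higher by 1.5-fold, 4, became 1 without ribosomal UMIs, relative to the median gene, with a filter of 0.5 or with a fold of 2, and 7 from pooled UMIs. The number lower, 0, became 3 without ribosomal UMIs or relative to the median gene, and 1 from pooled UMIs, in thinned cells or without myoblast-marker cells. Without ribosomal UMIs 21.0% of all genes were higher and 13.1% lower by that fold. The share of high cells on day 14 minus day 4, 2.28 percentage points, was 5.14 with each member divided by its mean, and between 1.64 and 4.52 under the other settings. The mean r with *Mmp1*, -0.31, was -0.24 in the middle tercile of cells by UMIs, a setting chosen after seeing the data, and between -0.25 and -0.32 under the others. No paired analysis was possible because each age had 1 library, and for the same reason no replicate could be left out. Depth limits the members below the filter and the 62 cells of day 14 with at least 5 *Mmp1* UMIs.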
